A study of Homo sapiens with 12 samples.

Results

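The genes described here are 10 regulators of the G1 phase of the cell cycle: the CDK inhibitors CDKN1A, CDKN1B, CDKN2C and CDKN2D, the D-type cyclins CCND1, CCND2 and CCND3, the E-type cyclin CCNE1, and the kinases CDK4 and CDK6. They were taken by name from the gene count table, where they are 10 of 58735 genes, and 10 of 10 passed the filter on low counts that left 20821 genes for testing. RNA was sequenced from K562, an erythroleukemia line with the fusion kinase BCR-ABL1, the target of nilotinib. The 12 libraries form 4 groups of 3 biological replicates: mock cells with the vehicle DMSO, mock cells with 0.1 µM nilotinib, and cells given DMSO or 0.1 µM nilotinib and then 50 µM hemin for 24 h. Hemin is an inducer of erythroid differentiation in this line. Hemin followed 24 h of DMSO or nilotinib. The library names mark the mock cells as 0 h and the hemin cells as 24 h, so a difference between mock and hemin groups, called a hemin change below, includes 24 h more of culture and of time since nilotinib or DMSO was added. Each group is a population of 1 cell line, and the p-values measure the spread between these cultures.

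Passage from G1 into S phase is driven by D-type cyclins bound to CDK4 or CDK6 and by E-type cyclins bound to CDK2, which phosphorylate the retinoblastoma family and release E2F transcription factors. Inhibitors of the INK4 family, to which CDKN2C and CDKN2D belong, bind CDK4 and CDK6, whereas those of the CIP/KIP family, to which CDKN1A and CDKN1B belong, bind cyclin-CDK complexes. In chronic myeloid leukemia cells BCR-ABL1 drives proliferation, and terminal erythroid maturation is known to be coupled to exit from the cell cycle.

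Total counts per library were 40418880 to 50506990 in mock DMSO, 33457078 to 36893606 in mock nilotinib, 36153691 to 41860655 in hemin DMSO and 35333809 to 40874699 in hemin nilotinib. Levels are given as counts per 1000000 counts (CPM) after TMM scaling, a correction for differences in RNA composition between libraries. Differences are log2 fold changes from edgeR's quasi-likelihood test fitted on all 12 libraries, and "edgeR adjusted p" is the p-value of that test after Benjamini-Hochberg adjustment over the 20821 genes. A gene is called higher or lower where it is under 0.05. An exact permutation test of 3 against 3 libraries could not go below 0.1. Replicates of every group differed by more than sampling noise. The hemin DMSO libraries stood apart in composition: mitochondrial genes took 2.88%, 1.45% and 2.86% of their counts, against 5.20% to 8.83% in the other 9 libraries, and their TMM factors were 0.904, 0.845 and 0.943, against 0.985 to 1.11. The part of this in the results was not tested beyond the other scalings given beside them. Within hemin nilotinib, replicates 1 and 3 were the least alike pair of replicates of any group (Pearson r = 0.977 over log2 CPM). TFRC, the transferrin receptor gene, was at 2845 CPM in hemin nilotinib replicate 1 and at 519 and 429 in replicates 2 and 3, against 2503 to 3006 in mock nilotinib. For each library, replicate 1 included, the calls of the 10 genes that change without it are given beside the result, as are list counts that move by over 1.5 times.

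Nilotinib lowered the transcripts of CDKN1A, CDKN2D, CCND1 and CCND2 and raised those of CDKN2C and CCND3, with and without hemin, whereas hemin alone raised CDKN1A above all. The calls of CCND3 with hemin and of CDKN2D in mock cells were lost when some single libraries were left out, as given with each gene. With hemin present, nilotinib left 3 of the 10 genes called higher and 4 lower, beside 32.4% and 31.8% of all genes tested, with a median log2 fold change of -0.16 against 0.022 over all genes. In mock cells nilotinib left 2 called higher and 5 lower, beside 20.7% and 21.8% of all genes, with medians of -0.25 and 0.0039. Hemin without nilotinib left 5 called higher and 1 lower, beside 25.7% and 27.8% of all genes, with medians of 0.18 and -0.047. Hemin on top of nilotinib left 0 higher and 0 lower by edgeR, beside 3.52% and 2.28% of all genes, with medians of 0.085 and 0.026. The interaction, which tests whether the nilotinib effect with hemin differs from that without, was called positive for 1 and negative for 1, beside 17.1% and 13.0% of all genes, with medians of -0.32 and 0.063. A 2-fold minimum ends the calls of CDKN2D and CCND3 for nilotinib with hemin, of CDKN2C, CDKN2D, CCND3 and CDK6 for nilotinib in mock cells, of CDKN1B, CDKN2D, CCND3 and CDK6 for hemin alone, and of CDKN2C in the interaction. The counts also moved with single libraries. For nilotinib with hemin 1 gene was higher without hemin nilotinib replicate 1. For hemin alone, scaling with no composition factors left 2 higher and 3 lower, and RLE or upper-quartile scaling left 0 lower. For hemin alone 3 were higher without mock DMSO replicate 2 or 3 or hemin DMSO replicate 2, and 0, 2 and 0 lower without mock DMSO replicate 2, mock DMSO replicate 3 and hemin DMSO replicate 3. The interaction had 0 positive without mock DMSO replicate 1 or 2, hemin DMSO replicate 3, mock nilotinib replicate 1, 2 or 3, or hemin nilotinib replicate 2, and 2 positive without hemin nilotinib replicate 3. It had 2 negative without mock nilotinib replicate 1 or hemin nilotinib replicate 3, and 3 without hemin DMSO replicate 1. By setting it had 0 positive and 2 negative with RLE or upper-quartile scaling, 2 positive with no composition factors, 0 positive by limma on log2(FPKM + 0.1), and 2 negative by DESeq2, by limma on log2(FPKM + 1) and with every gene of at least 1 count. With so few genes these counts lie near the background in most comparisons, and nothing about the group as a whole is read from them. The comparisons share groups: both nilotinib comparisons share libraries with both hemin comparisons, so their values are set side by side and not correlated.

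**Figure D1:**
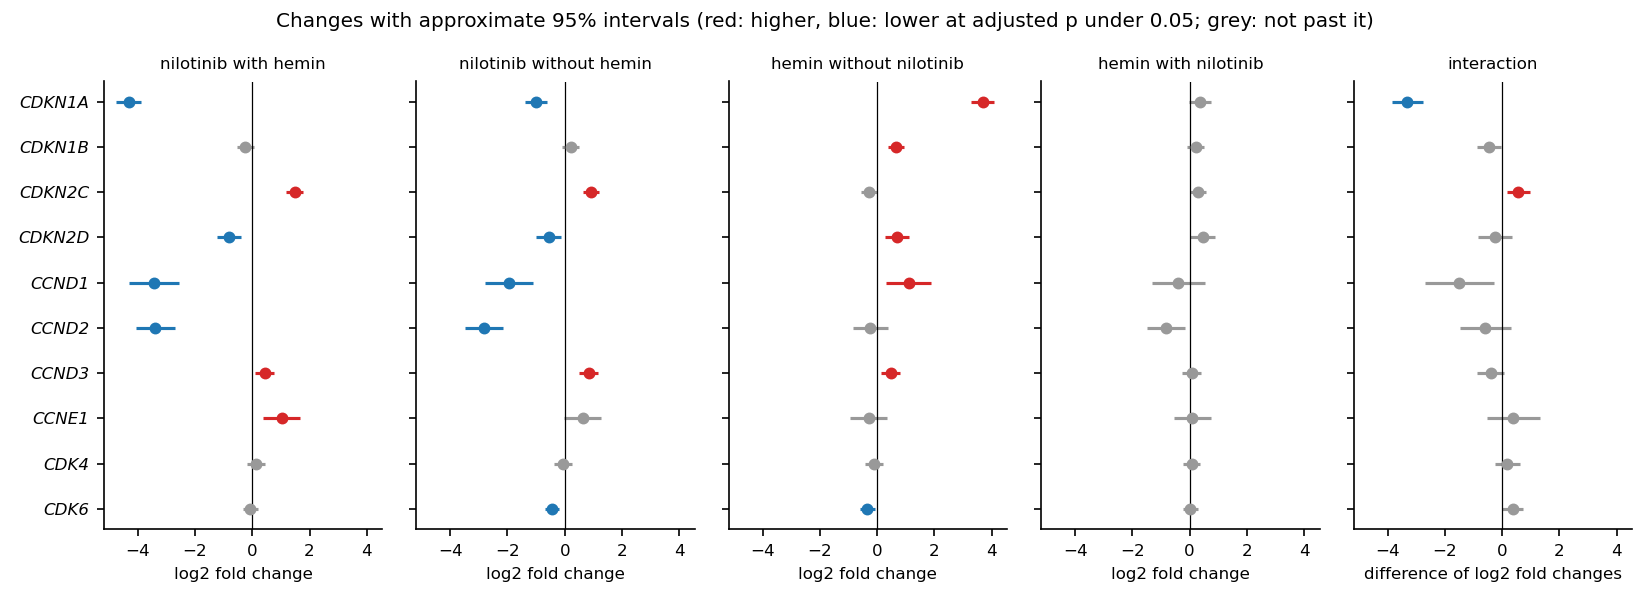
Change of each gene in the 5 comparisons, with the log2 fold change on the horizontal axis (a difference of log2 fold changes in the interaction panel) and bars for approximate 95% intervals from 3 libraries a group. CDKN1A lies at -4.31 for nilotinib with hemin and at 3.68 for hemin without nilotinib, while CDK4 stays between -0.12 and 0.13 in the first 4 panels.

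The promoters of CDKN1A and CDKN2D are shown because both genes were lower with nilotinib and higher with hemin, and that of CDKN2C because it moved the other way with nilotinib. The sequences are RefSeq promoter sequences on GRCh38.p14, limited to the longest stretch of the 250 bases upstream of the start that holds no annotated exon, and run 5′ to 3′ on the gene's strand. Capitals mark a match to GGGCGG, the GC box, or to CACGTG, the E-box, on either strand. The CDKN1A stretch is chr6:36678560-36678657, plus strand, that of CDKN2C chr1:50960495-50960744, plus strand, and that of CDKN2D chr19:10569060-10569229, minus strand.
CDKN1A: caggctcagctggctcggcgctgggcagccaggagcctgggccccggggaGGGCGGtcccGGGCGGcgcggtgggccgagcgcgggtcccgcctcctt
CDKN2C: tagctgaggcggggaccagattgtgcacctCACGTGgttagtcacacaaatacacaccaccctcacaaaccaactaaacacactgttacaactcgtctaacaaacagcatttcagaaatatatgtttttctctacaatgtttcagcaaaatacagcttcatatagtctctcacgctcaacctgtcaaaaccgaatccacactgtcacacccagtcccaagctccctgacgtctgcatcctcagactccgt
CDKN2D: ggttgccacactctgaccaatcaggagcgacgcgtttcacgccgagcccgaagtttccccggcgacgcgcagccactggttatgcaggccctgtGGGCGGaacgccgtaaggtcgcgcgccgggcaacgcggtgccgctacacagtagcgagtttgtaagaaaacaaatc

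Those 98 bases of CDKN1A hold 2 GC boxes, the 170 bases of CDKN2D hold 1, and the 250 bases of CDKN2C hold 1 E-box and 0 GC boxes. Over the full 250 upstream bases CDKN1A had 4 GC boxes and CDKN2D had 2. The CDKN2C entry shown lies directly upstream of the annotated gene, and the other 2 CDKN2C entries had 5 GC boxes, and 1 GC box with 1 E-box. CDKN1B had 1 GC box, CDK4 had 3 with 3 E-boxes, and the 2 CDK6 entries had 0 and 3. Of the 10 genes, 8 matched 13 of the 35116 promoter entries, and CCND1 and CCND2 have no entry. The search took 8 motifs on both strands, and the share of all promoters that hold each was 42.6% for GGGCGG, 6.34% for CACGTG, 1.39% for TTTCCCGC and 0.55% for TTTGGCGC (forms of the E2F site), 2.98% for GTAAACA (forkhead), 6.57% for TTCNNNGAA (STAT), and, for sites of GATA factors, 9.17% for AGATAA and 6.66% for TGATAA. Only GGGCGG and CACGTG occurred in the 13 windows. A match describes letters and is no evidence of binding.

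CDKN1A (ENSG00000124762, chr6:36676460-36687339 on GRCh38) encodes p21, a CIP/KIP inhibitor of cyclin-CDK2 complexes and a classic p53 target. Its level was 32.8, 27.6 and 22.8 CPM in mock DMSO, 17.1, 11.7 and 12.7 CPM in mock nilotinib, 333, 365 and 371 CPM in hemin DMSO, and 13.7, 18.5 and 21.5 CPM in hemin nilotinib (replicates 1, 2 and 3 in that order here and below). The hemin DMSO libraries were far above the other 9, mock DMSO came next without overlapping either nilotinib group, and the nilotinib groups overlapped each other. With hemin, nilotinib left CDKN1A 19.9-fold lower (log2 fold change -4.31, SE 0.20, edgeR adjusted p = 1.21e-10), and in mock cells 2.01-fold lower (log2 fold change -1.01, SE 0.18, edgeR adjusted p = 0.000326). Hemin without nilotinib raised it 12.8-fold (log2 fold change 3.68, SE 0.20, edgeR adjusted p = 2.80e-09). With nilotinib present the hemin change was 1.30-fold and not called (log2 fold change 0.37, SE 0.18, edgeR adjusted p = 0.249), but it was called without hemin nilotinib replicate 1, at a log2 fold change of 0.53 (edgeR adjusted p = 0.0471). The interaction was -3.31 on the log2 scale (SE 0.26, edgeR adjusted p = 1.19e-06), so the fall with nilotinib was larger in hemin than in mock cells. In bulk RNA, fewer cells expressing a gene and less of its RNA per cell cannot be told apart, here and for every gene below. The non-coding gene DINOL overlaps 4.79% of CDKN1A exon bases on the opposite strand and had at most 7 counts in any library. The protein-coding genes most like CDKN1A over the 12 libraries, by the root-mean-square difference of centred log2 CPM, were EFNA3 (0.384) and SNAI1 (0.397), against a median of 1.91 over the 12057 genes compared.

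CDKN1B (ENSG00000111276, chr12:12715058-12722371) encodes p27, the CIP/KIP inhibitor that holds cyclin E-CDK2 inactive in resting cells. It stood at 42.6, 46.3 and 46.5 CPM in mock DMSO, 48.3, 57.0 and 50.5 CPM in mock nilotinib, 61.1, 72.3 and 80.1 CPM in hemin DMSO, and 51.1, 69.4 and 59.9 CPM in hemin nilotinib. The order of the group means was hemin DMSO, hemin nilotinib, mock nilotinib and mock DMSO, where only the last of the neighbouring pairs did not overlap. Hemin without nilotinib raised CDKN1B 1.58-fold (log2 fold change 0.66, SE 0.14, edgeR adjusted p = 0.000897), a change of 0.42 with no composition factors. The nilotinib changes were not called, either with hemin (log2 fold change -0.24, edgeR adjusted p = 0.137, 95% interval -0.54 to 0.052) or in mock cells (log2 fold change 0.20, edgeR adjusted p = 0.258, 95% interval -0.093 to 0.50). Its interaction was -0.45 (edgeR adjusted p = 0.0984), which was called without hemin DMSO replicate 1, at -0.55 (edgeR adjusted p = 0.0452), and with upper-quartile scaling, at -0.57 (edgeR adjusted p = 0.0461). The most similar patterns were those of UBE2D3 (0.107) and UBE2Q2 (0.113), against a median difference of 0.562.

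CDKN2C (ENSG00000123080, chr1:50960745-50974633) encodes p18, an INK4 inhibitor of CDK4 and CDK6. Its values were 94.9, 86.6 and 76.9 CPM in mock DMSO, 155, 167 and 163 CPM in mock nilotinib, 73.7, 69.8 and 69.6 CPM in hemin DMSO, and 222, 208 and 163 CPM in hemin nilotinib. Every nilotinib library lay above every DMSO library, the nilotinib groups overlapped each other, and hemin DMSO lay below mock DMSO without overlap. Nilotinib raised CDKN2C 2.78-fold with hemin (log2 fold change 1.48, SE 0.13, edgeR adjusted p = 1.16e-07) and 1.88-fold without (log2 fold change 0.91, SE 0.13, edgeR adjusted p = 4.14e-05). The hemin change in the absence of nilotinib was not called (log2 fold change -0.28, edgeR adjusted p = 0.0856), but it was called without mock DMSO replicate 3, at -0.40 (edgeR adjusted p = 0.0423), and with no composition factors, at -0.52 (edgeR adjusted p = 0.00298). The interaction was 0.57 (SE 0.19, edgeR adjusted p = 0.0302), a larger rise with nilotinib in hemin than in mock cells. That call was lost on leaving out hemin DMSO replicate 3 (0.54, edgeR adjusted p = 0.0666), hemin nilotinib replicate 2 (0.56, edgeR adjusted p = 0.0668), mock DMSO replicate 1 (0.57, edgeR adjusted p = 0.0545) or 2 (0.58, edgeR adjusted p = 0.0617), or mock nilotinib replicate 1 (0.55, edgeR adjusted p = 0.0585), 2 (0.63, edgeR adjusted p = 0.0521) or 3 (0.61, edgeR adjusted p = 0.0561). It was also lost with RLE scaling (0.51, edgeR adjusted p = 0.0513), upper-quartile scaling (0.44, edgeR adjusted p = 0.0652), a 2-fold minimum, and limma on log2(FPKM + 0.1), where the value was 0.51 (limma adjusted p = 0.0508). C5orf30 (0.147) and TUBB6 (0.161) had the most similar patterns, against a median difference of 0.775.

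CDKN2D (ENSG00000129355, chr19:10566462-10569059) encodes p19, the other INK4 inhibitor measured here. It had the lowest mean of the 4 inhibitors in CPM per kb of gene length in all 4 groups, and its level was 9.21, 8.13 and 7.67 CPM in mock DMSO, 5.48, 5.22 and 6.20 CPM in mock nilotinib, 11.3, 12.9 and 16.5 CPM in hemin DMSO, and 6.09, 7.41 and 9.65 CPM in hemin nilotinib. Hemin DMSO was above all other groups, mock DMSO overlapped hemin nilotinib, and hemin nilotinib overlapped mock nilotinib. Nilotinib lowered CDKN2D 1.75-fold with hemin (log2 fold change -0.81, SE 0.20, edgeR adjusted p = 0.00229) and 1.48-fold without (log2 fold change -0.57, SE 0.20, edgeR adjusted p = 0.0340). The mock cell call was lost without mock DMSO replicate 1 (-0.53, edgeR adjusted p = 0.0829) or 2 (-0.59, edgeR adjusted p = 0.0700), without mock nilotinib replicate 1 (-0.55, edgeR adjusted p = 0.0837) or 2 (-0.55, edgeR adjusted p = 0.0888), and with upper-quartile scaling (-0.46, edgeR adjusted p = 0.103). Hemin without nilotinib raised it 1.63-fold (log2 fold change 0.70, SE 0.20, edgeR adjusted p = 0.00766), a call lost with no composition factors (0.46, edgeR adjusted p = 0.0849). Its interaction was -0.24 and not called (edgeR adjusted p = 0.553). The closest patterns were those of STK32C (0.157) and CNNM4 (0.175), against a median difference of 0.657.

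Compared per length, as CPM per kb of the gene length given in the count table, CDKN2C was the most abundant of the 4 inhibitors in mock DMSO, at 26.0 ± 2.72 CPM per kb (SD, n = 3), ahead of CDKN1B at 16.1 ± 0.781, CDKN1A at 9.10 ± 1.65 and CDKN2D at 5.55 ± 0.526. In hemin DMSO CDKN1A led, at 117 ± 6.69 CPM per kb, ahead of CDKN1B at 25.3 ± 3.41 and CDKN2C at 21.4 ± 0.689. CDKN1A thus made up 16.0% of the summed CPM per kb of the 4 inhibitors in mock DMSO, 67.7% in hemin DMSO, 6.02% in mock nilotinib and 6.45% in hemin nilotinib. The share of CDKN2C was 45.8%, 12.5%, 64.6% and 64.6% in the same order. Among these 4, the inhibitor with the largest share thus differed between hemin DMSO and the other 3 groups. CDKN1C, which is outside the 4 and in none of these shares or sums, had a higher mean than CDKN1B in every group but hemin nilotinib. It stood at 19.2 CPM per kb in mock DMSO, 36.3 in hemin DMSO, 23.6 in mock nilotinib and 18.3 in hemin nilotinib. The summed level of the 4 was 56.7 ± 4.19 CPM per kb in mock DMSO, 75.5 ± 2.53 in mock nilotinib, 92.0 ± 7.45 in hemin nilotinib and 173 ± 10.9 in hemin DMSO, with no overlap between neighbours in that order.

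Among the D-type cyclins, which activate CDK4 and CDK6, nilotinib went with lower CCND1 and CCND2 and higher CCND3. The promoter stretch of CCND3 is shown because CCND3 is the D-type cyclin that rose. It is RefSeq sequence on GRCh38.p14, chr6:41941849-41942058, minus strand, 210 bases from the middle of the gene's 3 entries by position, with no annotated exon, and the capitals CCGCCC mark a GC box read on the other strand.
CCND3: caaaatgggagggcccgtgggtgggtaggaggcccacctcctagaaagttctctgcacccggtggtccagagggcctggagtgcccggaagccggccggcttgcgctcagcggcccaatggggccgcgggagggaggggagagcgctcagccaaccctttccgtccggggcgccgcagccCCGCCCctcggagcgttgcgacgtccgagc

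The full 250 upstream bases of that CCND3 entry had 2 GC boxes, and the other 2 entries had 0 and 5. For CCNE1 the upstream window had 7 GC boxes.

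CCND1 (ENSG00000110092, chr11:69641087-69654474) encodes cyclin D1 and was the least abundant of the 10 genes by CPM per kb in all 4 groups. Its level was 3.94, 3.39 and 3.31 CPM in mock DMSO, 0.659, 0.729 and 1.38 CPM in mock nilotinib, 4.35, 9.76 and 8.65 CPM in hemin DMSO, and 0.604, 0.329 and 1.15 CPM in hemin nilotinib. Hemin DMSO was above mock DMSO, both were above every nilotinib library, and the nilotinib groups overlapped. The nilotinib libraries held 12 to 49 counts of CCND1 each. Nilotinib lowered it 10.8-fold with hemin (log2 fold change -3.43, SE 0.42, edgeR adjusted p = 2.79e-06) and 3.84-fold without (log2 fold change -1.94, SE 0.40, edgeR adjusted p = 0.000958). Hemin without nilotinib raised it 2.14-fold (log2 fold change 1.10, SE 0.36, edgeR adjusted p = 0.0184). Limma on log2(FPKM + 1) gave -1.15, -0.54 and 0.56 for these changes. The call for hemin was lost without hemin DMSO replicate 2 (0.88, edgeR adjusted p = 0.0848) or 3 (1.01, edgeR adjusted p = 0.0602), without mock DMSO replicate 2 (1.05, edgeR adjusted p = 0.0575) or 3 (1.0, edgeR adjusted p = 0.0668), and with no composition factors (0.85, edgeR adjusted p = 0.0681). The interaction was -1.49 and not called (edgeR adjusted p = 0.0568), but it was called without hemin DMSO replicate 1 (-1.78, edgeR adjusted p = 0.0227), hemin nilotinib replicate 3 (-2.03, edgeR adjusted p = 0.00894) or mock nilotinib replicate 1 (-1.67, edgeR adjusted p = 0.0477), with RLE scaling (-1.54, edgeR adjusted p = 0.0465), and with every gene of at least 1 count (-1.42, edgeR adjusted p = 0.0125). DESeq2 called it too, at -1.55 (DESeq2 adjusted p = 0.0196), as did limma on log2(FPKM + 1), at -0.62 (limma adjusted p = 0.0361). LTO1, at mean levels of 20.3 to 30.8 CPM by group, overlaps 10.3% of CCND1 exon bases on the opposite strand. The sources used here do not state whether counting used strand, so reads from that overlap cannot be told apart. DDN (0.397) and SHD (0.409) were most alike in pattern, against a median difference of 1.53.

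CCND2 (ENSG00000118971, chr12:4273772-4305350) encodes cyclin D2. It was measured at 44.0, 44.6 and 44.6 CPM in mock DMSO, 4.59, 6.88 and 7.53 CPM in mock nilotinib, 33, 38.1 and 41.7 CPM in hemin DMSO, and 1.35, 4.04 and 5.28 CPM in hemin nilotinib. The mock DMSO libraries were the highest and lay close together, hemin DMSO lay just below them without overlap, and every nilotinib library was far below both. Nilotinib lowered CCND2 10.5-fold with hemin (log2 fold change -3.39, SE 0.32, edgeR adjusted p = 2.05e-07) and 7.02-fold without (log2 fold change -2.81, SE 0.31, edgeR adjusted p = 2.52e-06), and limma on log2(FPKM + 1) gave -2.10 for the former. Hemin without nilotinib gave a change that was not called (log2 fold change -0.24, edgeR adjusted p = 0.502, 95% interval -0.85 to 0.37). With nilotinib, the hemin change was -0.82 and not called (edgeR adjusted p = 0.137), but it was called without hemin nilotinib replicate 3, at -1.23 (edgeR adjusted p = 0.0343), and with every gene of at least 1 count tested, at -0.82 (edgeR adjusted p = 0.00130). At the other end of the alternatives run, this change was -0.35. The interaction was -0.58 and not called (edgeR adjusted p = 0.323). AC008012.1, a gene on the same strand, overlaps 13.8% of CCND2 exon bases and had at most 6 counts in any library. CCND2-AS1 overlaps 1.76% on the opposite strand and had at most 16. Similar patterns were found for FOXA2 (0.376) and ARG2 (0.391), against a median difference of 1.71.

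CCND3 (ENSG00000112576, chr6:41934933-42050357) encodes cyclin D3, a D-type cyclin known for its role in the divisions of maturing erythroblasts. Its level was 299, 295 and 276 CPM in mock DMSO, 499, 532 and 518 CPM in mock nilotinib, 354, 497 and 356 CPM in hemin DMSO, and 643, 511 and 475 CPM in hemin nilotinib. Mock DMSO was below every other library, hemin DMSO replicate 2 reached into the range of hemin nilotinib, and the nilotinib groups overlapped. Nilotinib raised CCND3 1.78-fold in mock cells (log2 fold change 0.83, SE 0.16, edgeR adjusted p = 0.000421) and 1.35-fold with hemin (log2 fold change 0.43, SE 0.15, edgeR adjusted p = 0.0223), where the groups overlapped. The call with hemin was lost without hemin DMSO replicate 1 (0.34, edgeR adjusted p = 0.0919) or 3 (0.34, edgeR adjusted p = 0.102), without hemin nilotinib replicate 1 (0.30, edgeR adjusted p = 0.0845), and with the 6 libraries fitted alone (0.45, edgeR adjusted p = 0.0747). Hemin without nilotinib raised it 1.39-fold (log2 fold change 0.47, SE 0.15, edgeR adjusted p = 0.0169). This call was lost without hemin DMSO replicate 2 (0.30, edgeR adjusted p = 0.0823), without mock DMSO replicate 1 (0.43, edgeR adjusted p = 0.0697), 2 (0.47, edgeR adjusted p = 0.0513) or 3 (0.39, edgeR adjusted p = 0.0955), and with no composition factors (0.22, edgeR adjusted p = 0.171). Its interaction was -0.40 and not called (edgeR adjusted p = 0.179). AL513008.1 overlaps 0.414% of its exon bases. The genes with the nearest pattern were HIST1H4I (0.0849) and KDM4C (0.124), against a median difference of 0.627.

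Per length, CCND3 was the main D-type cyclin transcript in all 4 groups, at 50.0 ± 2.12 CPM per kb in mock DMSO against 6.20 ± 0.0448 for CCND2 and 0.734 ± 0.0714 for CCND1 (SD, n = 3). Its share of the summed CPM per kb of the 3 genes was 87.8% in mock DMSO, 90.9% in hemin DMSO, 98.8% in mock nilotinib and 99.3% in hemin nilotinib. CCND2 made up 10.9%, 7.03%, 0.978% and 0.566%, and CCND1 1.29%, 2.04%, 0.212% and 0.159%. The D-type cyclin pool in nilotinib was thus nearly all CCND3. Its summed level was 56.9 ± 2.15 CPM per kb in mock DMSO, 76.2 ± 14.6 in hemin DMSO, 90.1 ± 3.04 in mock nilotinib and 94.2 ± 14.9 in hemin nilotinib, where only mock DMSO did not overlap its neighbour.

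**Figure D2:**
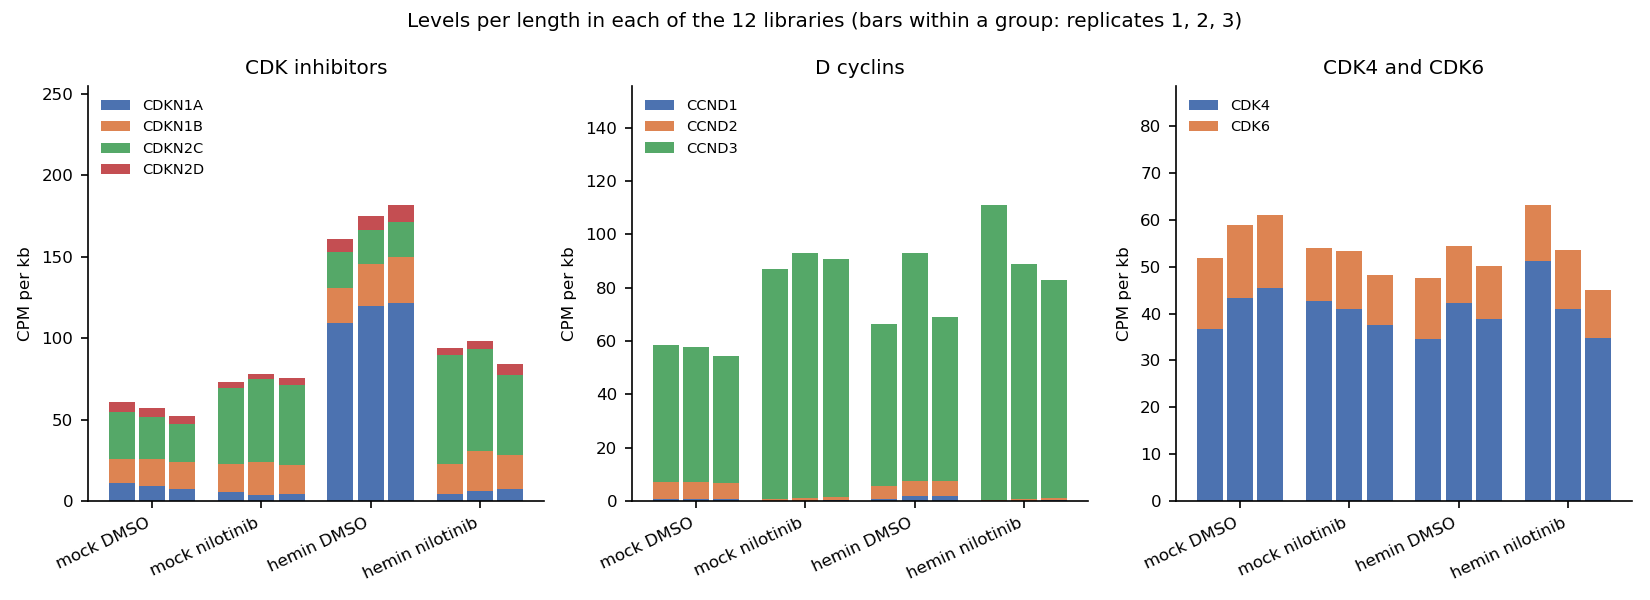
Stacked levels in CPM per kb of gene length for the 4 inhibitors, the 3 D-type cyclins, and CDK4 with CDK6, with a bar for each of the 12 libraries (replicates 1, 2 and 3 within a group). CDKN1A fills 67.7% of the inhibitor bars in hemin DMSO on average, and CCND3 fills 99.3% of the D-type cyclin bars in hemin nilotinib.

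CCNE1 (ENSG00000105173, chr19:29811898-29824308) encodes cyclin E1, the partner of CDK2 at the start of S phase. Its values were 25.7, 18.6 and 19.3 CPM in mock DMSO, 40.3, 29.1 and 28.8 CPM in mock nilotinib, 19.1, 16.4 and 16.3 CPM in hemin DMSO, and 60.5, 27.0 and 17.8 CPM in hemin nilotinib. Hemin nilotinib replicate 1 was the highest of all 12 libraries and replicate 3 of the same group lay within the range of hemin DMSO, so the hemin nilotinib libraries overlapped every other group. Mock nilotinib lay above mock DMSO, which overlapped hemin DMSO. With hemin, nilotinib raised CCNE1 2.03-fold (log2 fold change 1.02, SE 0.31, edgeR adjusted p = 0.00894), a call that was lost without hemin nilotinib replicate 1 (0.39, edgeR adjusted p = 0.0944). Fits by limma on log2(FPKM + 1) gave 0.73 (limma adjusted p = 0.0642), and on log2(FPKM + 0.1) 0.79 (limma adjusted p = 0.0557). In mock cells the change was not called (log2 fold change 0.63, SE 0.31, edgeR adjusted p = 0.112). It was called with the replicate block, which pairs libraries of the same number, at 0.62 (edgeR adjusted p = 0.0309), with the 6 libraries fitted alone, at 0.63 (edgeR adjusted p = 0.00553), and with every gene of at least 1 count tested, at 0.60 (edgeR adjusted p = 0.00433). Hemin gave -0.30 without nilotinib (edgeR adjusted p = 0.440) and 0.10 with it (edgeR adjusted p = 0.888), and the latter turned to -0.55 (edgeR adjusted p = 0.0780) without hemin nilotinib replicate 1. Its interaction of 0.39 (edgeR adjusted p = 0.529) turned to -0.24 (edgeR adjusted p = 0.535) without the same library. No other gene overlaps its exons in the annotation. The nearest patterns were those of SLF1 (0.224) and ESPL1 (0.227), against a median difference of 0.711.

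CDK4 (ENSG00000135446, chr12:57747727-57756013) encodes a kinase that D-type cyclins activate and that phosphorylates the retinoblastoma protein. It stood at 116, 137 and 144 CPM in mock DMSO, 135, 130.0 and 119 CPM in mock nilotinib, 109.6, 134 and 123 CPM in hemin DMSO, and 162, 129.9 and 110.4 CPM in hemin nilotinib. All 4 groups overlapped, and CDK4 was called in none of the 5 comparisons by edgeR. Its log2 fold changes were 0.13 for nilotinib with hemin (95% interval -0.18 to 0.44), -0.049 for nilotinib in mock cells (-0.36 to 0.26), -0.12 for hemin without nilotinib (-0.42 to 0.19) and 0.066 for hemin with nilotinib (-0.24 to 0.37). The interaction was 0.18 (edgeR adjusted p = 0.539). The change of hemin without nilotinib was called with no composition factors, at -0.36 (edgeR adjusted p = 0.0312). Without hemin nilotinib replicate 1 the nilotinib change in hemin was -0.012 (edgeR adjusted p = 0.943). TSPAN31, at mean levels of 14.1 to 26.2 CPM by group, overlaps 43.2% of CDK4 exon bases on the opposite strand, and 22.6% of the 150-base words of CDK4 transcripts occur in TSPAN31 as well, and how many CDK4 counts come from such reads was not measured. The patterns nearest to it were CNPY3 (0.0813) and MRPL20 (0.0877), against a median difference of 0.481.

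CDK6 (ENSG00000105810, chr7:92604921-92836594) encodes the other kinase that D-type cyclins activate. Its level was 184, 192 and 192 CPM in mock DMSO, 138, 150.2 and 131 CPM in mock nilotinib, 160.2, 149 and 139 CPM in hemin DMSO, and 149, 154 and 124 CPM in hemin nilotinib. Mock DMSO was above the other 9 libraries, which overlapped between groups. Nilotinib lowered CDK6 1.36-fold in mock cells (log2 fold change -0.44, SE 0.12, edgeR adjusted p = 0.00791), and the change with hemin was not called (log2 fold change -0.067, edgeR adjusted p = 0.644, 95% interval -0.32 to 0.19). Hemin without nilotinib lowered it 1.27-fold (log2 fold change -0.35, SE 0.12, edgeR adjusted p = 0.0244), and the value was -0.59 with no composition factors. This call was lost without hemin DMSO replicate 3 (-0.28, edgeR adjusted p = 0.108) or mock DMSO replicate 2 (-0.35, edgeR adjusted p = 0.0632), with RLE scaling (-0.30, edgeR adjusted p = 0.0524) and with upper-quartile scaling (-0.23, edgeR adjusted p = 0.0936). The interaction was 0.37 and not called (edgeR adjusted p = 0.112), but it was called without hemin nilotinib replicate 3 (0.51, edgeR adjusted p = 0.0353) and with no composition factors (0.58, edgeR adjusted p = 0.0115). AC002454.1 overlaps 0.661% of CDK6 exon bases on the opposite strand, with at most 19 counts in any library. ECD (0.0752) and KLHL8 (0.0869) had the nearest patterns, against a median difference of 0.484.

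Per length, CDK4 transcripts exceeded those of CDK6 in all 12 libraries, with 41.8 ± 4.51 against 15.5 ± 0.379 CPM per kb in mock DMSO (SD, n = 3). CDK4 made up 72.9% of their summed CPM per kb in mock DMSO, 75.9% in hemin DMSO, 78.0% in mock nilotinib and 78.3% in hemin nilotinib. The summed level of both kinases was 57.3 ± 4.88, 50.7 ± 3.38, 51.8 ± 3.16 and 53.9 ± 9.16 CPM per kb in that order, and the groups overlapped. In mock DMSO the 10 genes ranked, in CPM per kb, CCND3 at 50.0, CDK4 at 41.8, CDKN2C at 26.0, CDKN1B at 16.1, CDK6 at 15.5, CDKN1A at 9.10, CCNE1 at 8.31, CCND2 at 6.20, CDKN2D at 5.55 and CCND1 at 0.734. In hemin DMSO CDKN1A led at 117 CPM per kb, and in both nilotinib groups CCND3 and CDKN2C led, at 89.0 and 48.7 in mock nilotinib and 93.6 and 59.6 in hemin nilotinib.

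With hemin added on top of nilotinib, edgeR called 0 of the 10 genes. The log2 fold changes of the inhibitors were 0.37 (CDKN1A, 95% interval -0.013 to 0.76), 0.21 (CDKN1B, 95% interval -0.083 to 0.51), 0.29 (CDKN2C, 95% interval 0.012 to 0.57) and 0.46 (CDKN2D, 0.024 to 0.89). Those of the cyclins and of CDK6 were -0.39 (CCND1, -1.30 to 0.52), -0.82 (CCND2, -1.48 to -0.16), 0.072 (CCND3, -0.26 to 0.40), 0.10 (CCNE1, -0.55 to 0.75) and 0.027 (CDK6, -0.23 to 0.28). Over the alternatives run, the value of CCND1 ran from -0.99 to -0.012 and that of CCND2 from -1.23 to -0.35. At an unadjusted p under 0.05 edgeR counted 3 of the 10 (CDKN2C, CDKN2D and CCND2), while DESeq2 and both limma fits on FPKM called 0 after adjustment. The count over all genes in this comparison, 1208, rested on single libraries: it was 2793 without hemin nilotinib replicate 1, 286 without replicate 2, 213 without mock nilotinib replicate 2 and 234 without mock nilotinib replicate 3. Among the 10 genes, CDKN1A was called without hemin nilotinib replicate 1, and CCND2 without hemin nilotinib replicate 3, at the values given with each gene.

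The 4 CDK inhibitors outside the group described are CDKN1C, CDKN2A, CDKN2B and CDKN3. CDKN2A and CDKN2B had 0 counts in all 12 libraries, where 3 counts in a library would be 0.0540 to 0.0957 CPM, and were not tested. CDKN1C, which encodes p57, was lower with nilotinib in hemin (log2 fold change -0.99, edgeR adjusted p = 0.00222), higher with hemin alone (log2 fold change 0.92, edgeR adjusted p = 0.00479) and not called in mock cells (log2 fold change 0.29, edgeR adjusted p = 0.349). CDKN3, a phosphatase of CDK2, was lower with nilotinib in mock cells (log2 fold change -0.44, edgeR adjusted p = 0.0217), higher with hemin alone (log2 fold change 0.37, edgeR adjusted p = 0.0421) and with hemin on top of nilotinib (log2 fold change 0.61, edgeR adjusted p = 0.0242), and not called for nilotinib with hemin (log2 fold change -0.20, edgeR adjusted p = 0.246). These CDKN3 calls depended on single libraries. That in mock cells was lost without mock DMSO replicate 1 (-0.44, edgeR adjusted p = 0.0597), mock nilotinib replicate 2 (-0.44, edgeR adjusted p = 0.0746) or mock nilotinib replicate 3 (-0.44, edgeR adjusted p = 0.0707). That for hemin alone was lost without mock DMSO replicate 1 (0.34, edgeR adjusted p = 0.123), mock DMSO replicate 2 (0.32, edgeR adjusted p = 0.150), mock DMSO replicate 3 (0.31, edgeR adjusted p = 0.163), hemin DMSO replicate 1 (0.39, edgeR adjusted p = 0.0575) or hemin DMSO replicate 2 (0.26, edgeR adjusted p = 0.155). With hemin on top of nilotinib it was lost without mock nilotinib replicate 2 (0.56, edgeR adjusted p = 0.152), mock nilotinib replicate 3 (0.55, edgeR adjusted p = 0.137) or hemin nilotinib replicate 2 (0.53, edgeR adjusted p = 0.127).

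Other genes of the G1/S pathway were counted in lists, beside the shares and medians of all genes given above, and a library named in brackets after a count or median was left out to get it. In the CDK2 branch of the transition, nilotinib with hemin left 4 of 10 higher and 5 lower (median -0.20), with CCNE2 (log2 fold change 0.59, edgeR adjusted p = 0.0381) and the CDK-activating kinase CDK7 (log2 fold change -1.58, edgeR adjusted p = 1.81e-07) at the ends. The CCNE2 call was lost without hemin DMSO replicate 1 (0.58, edgeR adjusted p = 0.0762), hemin DMSO replicate 2 (0.48, edgeR adjusted p = 0.126) or hemin nilotinib replicate 1 (0.25, edgeR adjusted p = 0.275). In mock cells it left 0 higher and 5 lower (median -0.27), down to CCNH (log2 fold change -0.58, edgeR adjusted p = 0.00200). Hemin alone left 5 higher and 3 lower (median 0.37), from CDK7 (log2 fold change 1.18, edgeR adjusted p = 6.91e-06) to CCNH (log2 fold change -0.98, edgeR adjusted p = 1.72e-05). With a library left out this list had 2 higher (hemin DMSO replicate 1 or 3, or hemin nilotinib replicate 1), a median of -0.12 (hemin DMSO replicate 2), a median of -0.44 (hemin nilotinib replicate 1) and a median of -0.060 (hemin nilotinib replicate 3) for nilotinib with hemin. For nilotinib in mock cells it had 3 lower (mock DMSO replicate 3 or mock nilotinib replicate 2) and 2 lower (mock nilotinib replicate 1). Among the pocket proteins and E2F factors, nilotinib with hemin left 9 of 13 higher and 1 lower (median 0.95), with E2F8 (log2 fold change 2.47, edgeR adjusted p = 9.55e-08) and E2F6 (log2 fold change -0.67, edgeR adjusted p = 0.00282) at the ends. In mock cells 4 were higher and 3 lower (median 0.35), from E2F4 (log2 fold change 0.91, edgeR adjusted p = 7.24e-05) to E2F5 (log2 fold change -0.61, edgeR adjusted p = 0.0343). Hemin alone left 2 higher and 10 lower (median -0.66), from E2F6 (log2 fold change 1.04, edgeR adjusted p = 9.70e-05) to E2F8 (log2 fold change -1.58, edgeR adjusted p = 1.69e-05). The E2F5 call was lost without mock DMSO replicate 1 (-0.65, edgeR adjusted p = 0.0557), mock DMSO replicate 3 (-0.56, edgeR adjusted p = 0.106), mock nilotinib replicate 1 (-0.55, edgeR adjusted p = 0.106) or mock nilotinib replicate 2 (-0.52, edgeR adjusted p = 0.120). With a library left out the E2F list had a median of 0.62 (hemin nilotinib replicate 1) for nilotinib with hemin. In mock cells it had 1 lower (mock DMSO replicate 1 or 3, or mock nilotinib replicate 2), 2 higher (mock DMSO replicate 3) and a median of 0.21 (mock nilotinib replicate 1). For hemin alone it had 1 higher (mock DMSO replicate 1, 2 or 3, or hemin DMSO replicate 2). Where a count of 0 called in a direction over all 12 libraries is given for a list here or below, the count at an unadjusted p under 0.05 was 0 as well.

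The E2F target genes of S phase, which act in DNA replication and nucleotide supply, had 12 of 16 higher and 1 lower for nilotinib with hemin (median 0.90), with RRM2 (log2 fold change 2.29, edgeR adjusted p = 1.37e-05) and CDC6 (log2 fold change -1.19, edgeR adjusted p = 1.89e-05) at the ends. In mock cells 7 were higher and 0 lower by edgeR (median 0.43). For hemin alone 2 were higher and 10 lower (median -0.61), from MCM5 (log2 fold change 1.19, edgeR adjusted p = 2.96e-05) to MCM4 (log2 fold change -1.61, edgeR adjusted p = 1.24e-05). Mitosis and proliferation genes had 5 of 10 higher and 1 lower for nilotinib with hemin (median 0.32), with MKI67 (log2 fold change 1.35, edgeR adjusted p = 1.85e-06) and PLK1 (log2 fold change -0.55, edgeR adjusted p = 0.00104) at the ends. The list had 1 higher and 4 lower in mock cells (median -0.29), from CCNB2 (log2 fold change 0.43, edgeR adjusted p = 0.0340) to PLK1 (log2 fold change -0.75, edgeR adjusted p = 0.000139). It had 1 higher and 3 lower for hemin alone (median -0.16), from AURKA (log2 fold change 0.34, edgeR adjusted p = 0.0287) to MKI67 (log2 fold change -0.70, edgeR adjusted p = 0.00134). The CCNB2 call was lost without any of the 6 libraries compared, with values of 0.37 to 0.44 (edgeR adjusted p = 0.0768 to 0.144). That of AURKA was lost without mock DMSO replicate 1 (0.25, edgeR adjusted p = 0.196), mock DMSO replicate 2 (0.31, edgeR adjusted p = 0.108), mock DMSO replicate 3 (0.35, edgeR adjusted p = 0.0677) or hemin DMSO replicate 1 (0.24, edgeR adjusted p = 0.127). The mitosis list thus had 0 higher (mock DMSO replicate 1, 2 or 3, or mock nilotinib replicate 1, 2 or 3) in mock cells. Hemin alone gave it 0 higher (mock DMSO replicate 1, 2 or 3, or hemin DMSO replicate 1), a median of -0.075 (hemin DMSO replicate 1) and a median of -0.26 (hemin DMSO replicate 2). With hemin on top of nilotinib the mitosis list had 4 higher and 0 lower (median 0.41), up to AURKA (log2 fold change 0.67, edgeR adjusted p = 0.00782). Each of these calls was lost without mock nilotinib replicate 2, mock nilotinib replicate 3 or hemin nilotinib replicate 2.

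Of the genes known as p53 targets in cells with functional p53, as CDKN1A is, 7 of 15 were higher and 4 lower for nilotinib with hemin (median 0.34), from BTG2 (log2 fold change 2.31, edgeR adjusted p = 4.20e-09) to PLK3 (log2 fold change -2.77, edgeR adjusted p = 1.12e-06). In mock cells 6 were higher and 2 lower (median 0.075), with BTG2 (log2 fold change 2.60, edgeR adjusted p = 3.47e-09) and PLK3 (log2 fold change -2.99, edgeR adjusted p = 1.88e-06) again at the ends. For hemin alone 4 were higher and 3 lower (median -0.16), from SESN2 (log2 fold change 1.61, edgeR adjusted p = 0.000202) to XPC (log2 fold change -1.16, edgeR adjusted p = 9.48e-06), beside a 12.8-fold rise of CDKN1A. With a library left out the p53 list had a median of 0.22 (hemin DMSO replicate 2) and a median of 0.10 (hemin nilotinib replicate 3) for nilotinib with hemin. In mock cells it had a median of -0.022 (mock DMSO replicate 1), a median of 0.22 (mock nilotinib replicate 1), a median of 0.033 (mock nilotinib replicate 2) and a median of -0.024 (mock nilotinib replicate 3). Hemin alone gave a median of -0.28 (mock DMSO replicate 1), 1 higher (mock DMSO replicate 3), 2 higher (hemin DMSO replicate 1) and a median of -0.061 (hemin DMSO replicate 2). K562 is known to lack functional p53, and what moved these genes or CDKN1A was not tested. Among the transcription factors known to act on the 10 genes, 8 of 11 were higher and 3 lower for nilotinib with hemin (median 0.74), from E2F1 (log2 fold change 1.52, edgeR adjusted p = 9.97e-06) to MYC (log2 fold change -1.47, edgeR adjusted p = 8.10e-08). In mock cells 3 were higher and 3 lower (median 0.34), from FOXO4 (log2 fold change 1.60, edgeR adjusted p = 4.90e-05) to MYC (log2 fold change -2.18, edgeR adjusted p = 3.67e-09). For hemin alone 2 were higher and 5 lower (median -0.37), from FOXO1 (log2 fold change 2.07, edgeR adjusted p = 3.67e-06) to STAT5A (log2 fold change -2.51, edgeR adjusted p = 1.93e-07).

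Of 9 listed readouts of BCR-ABL1 signalling, 8 passed the filter on low counts and were tested. Of these 8, 0 were higher and 6 lower by edgeR for nilotinib with hemin (median -2.74), down to ETV4 (log2 fold change -6.94, edgeR adjusted p = 3.37e-11). All 8 were lower in mock cells (median -3.32), again with ETV4 as the lowest (log2 fold change -7.15, edgeR adjusted p = 1.53e-10). For hemin alone 2 were higher and 5 lower (median -0.54), from ETV5 (log2 fold change 1.18, edgeR adjusted p = 0.000818) to CISH (log2 fold change -2.15, edgeR adjusted p = 4.96e-08). With a library left out these readouts had a median of -1.80 (hemin nilotinib replicate 3) for nilotinib with hemin and 3 lower (mock DMSO replicate 2, or hemin DMSO replicate 1 or 3) for hemin alone. Erythroid markers had 8 of 8 higher for nilotinib with hemin (median 2.39), up to KLF1 (log2 fold change 4.71, edgeR adjusted p = 3.23e-11), and 7 of 8 higher without hemin nilotinib replicate 1, where TFRC went from 1.83 (edgeR adjusted p = 0.00493) to 0.43 (edgeR adjusted p = 0.103). They had 7 of 8 higher in mock cells (median 1.90), up to HBG1 (log2 fold change 3.07, edgeR adjusted p = 1.09e-06). They had 2 higher and 4 lower for hemin alone (median -0.88), from HBG2 (log2 fold change 0.96, edgeR adjusted p = 0.000489) to KLF1 (log2 fold change -3.57, edgeR adjusted p = 2.36e-09). Leaving out a library gave 1 higher (mock DMSO replicate 1 or 2, or hemin DMSO replicate 1 or 2) for hemin alone. The summed level of the 8 erythroid markers was, in CPM, 1336, 1800.0 and 2204 in mock DMSO, 6308, 7516 and 6648 in mock nilotinib, 996, 1172 and 1035 in hemin DMSO, and 7192, 4208 and 4530.0 in hemin nilotinib, with 0 of 8 at 0 in any library.

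Summed markers of T cells and of monocytes and granulocytes were lower with nilotinib, in mock cells and with hemin, as CCND1 and CCND2 were. Those of epithelial cells were lower in both settings too, by less. The fibroblast sum was lower with nilotinib in hemin cells only. In the DMSO groups each sum rests mostly on a single gene. The 4 T-cell markers summed to, in CPM, 8.72, 5.25 and 2.50 in mock DMSO, 0.228, 0.292 and 0.288 in mock nilotinib, 6.89, 13.5 and 5.68 in hemin DMSO, and 0.0575, 0.412 and 0.468 in hemin nilotinib, most of it CD3D in the DMSO groups. CD3D was lower with nilotinib both with hemin (log2 fold change -6.53, edgeR adjusted p = 2.34e-07) and without (log2 fold change -5.06, edgeR adjusted p = 3.87e-06). The 5 monocyte and granulocyte markers summed to, in CPM, 38.0, 32.0 and 25.9 in mock DMSO, 3.30, 4.84 and 3.95 in mock nilotinib, 30.5, 46.0 and 31.8 in hemin DMSO, and 2.19, 3.38 and 4.07 in hemin nilotinib, mostly LYZ. LYZ was lower with nilotinib both with hemin (log2 fold change -3.37, edgeR adjusted p = 2.91e-08) and without (log2 fold change -3.20, edgeR adjusted p = 9.58e-08), and not called for hemin alone (log2 fold change -0.33, edgeR adjusted p = 0.257). Of the 3 of these 5 markers that were tested, edgeR called 3 lower for nilotinib with hemin and 1 lower in mock cells (2 without mock nilotinib replicate 1), and 2 higher for hemin alone. The log2 fold changes of the 3 ran from -3.20 to 0.84 for nilotinib in mock cells and from -0.33 to 4.26 for hemin alone, so not all went in the directions of CDKN1A. The 4 fibroblast markers summed to, in CPM, 14.4, 12.3 and 8.73 in mock DMSO, 13.5, 16.3 and 22.9 in mock nilotinib, 31.5, 30.9 and 24.8 in hemin DMSO, and 9.89, 14.7 and 22.9 in hemin nilotinib, mostly COL1A1. The 3 epithelial markers summed to, in CPM, 65.3, 61.3 and 63.1 in mock DMSO, 37.8, 47.6 and 45.3 in mock nilotinib, 45.2, 65.7 and 44.6 in hemin DMSO, and 34.8, 35.9 and 28.2 in hemin nilotinib, nearly all EPCAM. At 0 in a library were 0 to 3 of the T-cell, 0 to 2 of the monocyte and granulocyte, 1 of the fibroblast and 0 to 1 of the epithelial markers. Whether other cells take part in the levels of CCND1 and CCND2 was not tested.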

How the data were processed

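RNA of 12 K562 libraries was sequenced by a sequencing service as 150-base paired-end reads, and the authors deposited a table of whole-number counts per gene and, beside it, FPKM values per gene. The aligner and the strand setting of counting are not given in the sources used here; the submitters' processing notes name GRCh38.p12, DESeq and DESeq2. All 58735 genes have the name, start and end of GENCODE 29. The 10 members and all lists were chosen with earlier results of these data known.

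Counts were tested with edgeR 4.0.16 in R 4.3.3 (filterByExpr with a minimum count of 10 and a minimum total of 15, TMM, glmQLFit and glmQLFTest, 1 mean per group, Benjamini-Hochberg adjustment, two-sided). CPM used TMM-scaled totals, and CPM per kb the table's gene length. Intervals use the t distribution with the degrees of freedom of edgeR's test, cover approximately 95%, and 3 counts were taken as the limit a count of 0 allows. Scripts were tested on simulated data. Genes named beside the 10 are each list's largest called rise and fall in each comparison described, every other CDK inhibitor, the 2 protein-coding genes nearest in pattern (mean of at least 1 CPM), and genes that overlap a member; some of these results are not reported here.

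Alternatives were RLE, upper-quartile or no composition factors, DESeq2 1.42.0, 2 other filters, a 2-fold minimum, limma 3.58.1 on log2 FPKM with a pseudocount of 1 or 0.1, the 6 libraries alone, the replicate block, and each library left out (for the other lists chosen after seeing the data). Same-numbered libraries deviated together between mock DMSO and mock nilotinib (r = 0.131 to 0.141 over genes) and between mock nilotinib and hemin nilotinib (0.332 to 0.373). With every r over 0.1, these 2 comparisons were taken as paired, a cut that mock DMSO and hemin DMSO just missed (0.0941 to 0.130). The labels do not say what a number marks. Promoter sequences came from RefSeq (GRCh38.p14), and figures from matplotlib 3.10.9. No deposited fold changes or p-values were used.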

Additional observations from a re-analysis of the deposited data

Results flagged for a closer look

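For CDKN1A, the nilotinib effect in hemin-treated cells differed from that in mock cells: the interaction on the log2 scale was -3.31 (SE 0.26, edgeR quasi-likelihood test, Benjamini-Hochberg adjusted p = 1.19e-06), with log2 fold changes of -4.31 with hemin and -1.01 without. For CDKN2C the same difference between groups was 0.57 (SE 0.19, edgeR adjusted p = 0.0302), with 1.48 with hemin and 0.91 without. The first was called in every alternative run, and the second was lost when any of 7 of the 12 libraries was left out.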

How the results depend on the processing

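Over 50 results for the 10 genes and 940 alternative values, 849 kept direction and side of the threshold, 50 kept direction and lost the call, 22 gained it and 19 turned direction. None of the 22 called results turned; 9 of them kept the call in every alternative run, and 14 in every alternative but the 2-fold minimum. Of the 28 not called, 12 kept direction and side throughout. The cause was not tested for any of the changes below.

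With a library left out, values for hemin with nilotinib ran from -0.070 to 0.15 for CCND3, -0.55 to 0.41 for CCNE1, -0.094 to 0.18 for CDK4 and -0.057 to 0.11 for CDK6, so each turned. Below 0 were all 4 without hemin nilotinib replicate 1 (-0.070, -0.55, -0.094 and -0.0081), CCNE1, CDK4 and CDK6 without mock nilotinib replicate 3 (-0.0015, -0.0060 and -0.040), and CDK6 without hemin nilotinib replicate 2 (-0.057). CCNE1 there was -0.085 and -0.068 by limma with pseudocounts of 0.1 and 1, and CDK6 -0.0078 with no composition factors. For nilotinib with hemin, CDK4 ran from -0.012 to 0.27 and CDK6 from -0.13 to 0.037, and CDK6 was 0.11 with no composition factors. With upper-quartile factors CDK4 turned to 0.0066 for hemin and 0.063 for nilotinib, each without the other. The CCNE1 interaction ran from -0.24 to 0.76, the lowest without hemin nilotinib replicate 1.

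Hemin with nilotinib, at 1208 genes called, gave 1974 with DESeq2, 1987 with every gene of at least 1 count, 565 with the 2-fold minimum, 741 and 694 by limma with pseudocounts of 1 and 0.1, 183 with the 6 libraries alone, and 213 to 2793 with a library left out. The 2-fold minimum left 4872 of 8851 for nilotinib without hemin, 6474 of 11156 for hemin without nilotinib and 4073 of 6271 for the interaction. Of the 10 genes, nilotinib without hemin then had 0 higher and 3 lower, hemin without nilotinib 2 higher and 0 lower, and the interaction 0 positive. Hemin without nilotinib had 2 higher and 3 lower with no composition factors, and 0 lower with RLE or upper-quartile factors. Hemin with nilotinib had 1 lower with every gene of at least 1 count. The interaction had 0 positive and 2 negative with RLE or upper-quartile factors, 2 positive with no composition factors, 0 positive by limma with a pseudocount of 0.1, and 2 negative with DESeq2, every gene of at least 1 count, or limma with a pseudocount of 1. With a library left out, the counts were 1 to 3 higher for nilotinib with hemin, 3 to 5 higher and 0 to 2 lower for hemin without nilotinib, 0 to 1 higher and 0 to 1 lower for hemin with nilotinib, and 0 to 2 positive and 1 to 3 negative for the interaction.

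The replicate block, in the 2 comparisons taken as paired, changed the call of CCNE1 for nilotinib without hemin (0.62) and no other call of the 10 genes. It moved the genes called from 8851 to 9294 and, for hemin with nilotinib, from 1208 to 1587, and turned CCNE1 there to -0.011. Within the 6 libraries alone, a fit chosen after seeing the data, the block turned it to -0.056 and called 1600 genes, against 183 in those libraries without it. In the other comparisons the numbers are not taken to pair the libraries (r = 0.0941 to 0.130 between mock DMSO and hemin DMSO, -0.0556 to 0.266 between hemin DMSO and hemin nilotinib). Of the pairs of groups that meet only in the interaction, mock nilotinib and hemin DMSO had 0.103 to 0.152, and mock DMSO and hemin nilotinib -0.109 to 0.140. As a hint from the data, not the design, 6 of 6 libraries correlated best with their own number between hemin DMSO and either mock group, 3 of 6 between the hemin groups and 2 of 6 between mock DMSO and hemin nilotinib. The block left 2 of the 10 genes negative in the interaction, where CCND1 was called (-1.44, edgeR adjusted p = 0.0457), and, within the 6 libraries alone, 0 lower for hemin without nilotinib.

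Scaling moved the median over all genes to 0.199 for nilotinib with hemin, -0.286 for hemin without nilotinib and 0.272 for the interaction with no composition factors, from 0.022, -0.047 and 0.063, and to 0.113 from 0.0039 for nilotinib without hemin with upper-quartile factors. With no composition factors the share of calls that were higher was 33.9% against 48.0% for hemin without nilotinib, 49.2% against 60.7% for hemin with nilotinib and 73.3% against 56.7% for the interaction, where upper-quartile factors gave 46.3%. The 2-fold minimum gave 71.5% for hemin with nilotinib, and limma with a pseudocount of 1 gave 48.6%. Depth limits CCND1 most, with 12 to 49 counts in the nilotinib libraries.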
